A study of Homo sapiens with 2 samples.

Results

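The genes described here are 10 members of the Notch pathway, named by symbol: the receptor genes NOTCH1 and NOTCH2, the ligand genes JAG1, JAG2 and DLL1, the Notch-induced genes HES1, HEY1, NRARP and DTX1, and HES4, a further gene of the HES family. All probe sets annotated with 1 of these symbols and no other were taken, which gave 24 probe sets of the 54675 on the array and 10 of 19775 annotated gene symbols. The genes were measured in K562, an established human erythroleukemia line, on Affymetrix expression arrays of total RNA. The control culture was nucleofected with 3 µg of a control mimic lacking homology to human genes. The other culture was nucleofected with 3 µg of a miR-34a mimic. Both were grown in the same medium and harvested at 24 hours. Nucleofection is common to both groups, but each culture was nucleofected separately, and a difference in its efficiency was not tested. With 1 array of 1 culture in each group there is no spread between cultures and no p-value, and every difference below compares this pair of arrays.

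Notch receptors are single-pass membrane proteins that are activated by Jagged and Delta-like ligands on neighbouring cells. Ligand binding leads to cleavage by an ADAM protease and then by gamma-secretase, and the freed intracellular part enters the nucleus, where it joins the DNA-binding protein RBPJ and a Mastermind coactivator to switch on HES, HEY, NRARP and DTX1. In blood cells the pathway is best known for directing progenitors to the T cell lineage. A microRNA pairs through its seed with the 3′ untranslated region of an mRNA and lowers its stability or translation, and mRNAs of Notch receptors and ligands are among the reported targets of miR-34a.

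The seed of the mature microRNA that the mimic stands for is shown because it sets which mRNAs can pair with it. The sequences are from RefSeq (GRCh38.p14), written 5′ to 3′ with the seed, bases 2 to 8, in capitals. The mature miR-34a-5p of the gene MIR34A lies at chr1:9151735-9151756 on the minus strand. That table is not complete, and of its 2545 mature microRNAs 3 had this seed, while an mRNA matches it with the letters CACUGCC.
hsa-miR-34a-5p: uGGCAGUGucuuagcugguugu
hsa-miR-449a: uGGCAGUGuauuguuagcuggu
hsa-miR-449b-5p: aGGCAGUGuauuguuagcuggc
The other two microRNAs are shown for their shared seed and were not transfected here, and miR-34c-5p is a further member of the family. No untranslated region was searched for the seed match here, so no member is called a target from these data.

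In bulk RNA, fewer cells with a transcript and less transcript per cell cannot be told apart. Signals are the deposited values in arbitrary units. A ratio is the difference of log2(signal + 14.9) between the miR-34a and control arrays after the median over 12774 expressed genes, 0.0090, was taken off, and it understates the change of dim genes. Expressed means a mean level at or above the median of all probe sets, which is a signal of about 39.0. Background was set by 27 probe sets for bacterial transcripts, and a signal no higher than their maximum, 75.4, is called within background. Where a gene had several expressed probe sets, the brightest gave its value. The spread between the brightest and second probe sets of 5494 genes was 0.22 (SD, log2), a technical spread only.

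K562 identity was checked first. All erythroid and K562 markers with a probe set here, 8 readings with HBG1 and HBG2 read together, were above background, the lowest, TAL1, at 985.3 on the control array. Above background were 2 of 4 lymphoid markers, 1 of 5 myeloid, 2 of 4 endothelial and 4 of 6 stromal or epithelial markers, while the endothelial genes CDH5 and TEK read 7.06 and 10.9 on the control array and the floor value of 1 on the miR-34a array. The summed control and miR-34a signals were 41633 and 46414 for the erythroid list, 1357 and 794.5 for the lymphoid, 143.6 and 148.0 for the myeloid, 328.6 and 290.3 for the endothelial and 5952 and 5592 for the stromal and epithelial list. The lower lymphoid sum came from CD3D, a T cell receptor subunit gene, at 953.6 and 351.9. CD79A was slightly higher with miR-34a, at 329.9 and 341.7. CD3E and MS4A1 were within background on both arrays, and no direction is read for them. Among the stromal and epithelial markers above background, EPCAM read 1426 and 653.7 and COL1A2 370 and 191.8. COL1A1 read 120.8 and 118.6, and KRT18 was higher with miR-34a, at 3969 and 4577. The part of other cell types in the results was not tested.

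Across the members, 9 of 10 genes had an expressed probe set, and by the sign of the ratio alone 7 of these were lower with miR-34a and 2 higher. The ratios of NOTCH2, HES4, HEY1 and DTX1 were inside the spread between probe sets. The ratio of HES1 was past 2-fold lower, and 0 members were past 2-fold higher. The ratios of DLL1, HES1 and NRARP were past 1.5-fold lower, and 0 members were past 1.5-fold higher. These are 11.1% of the 9 measured members at 2-fold lower and 33.3% at 1.5-fold lower. DLL1 is counted by its ratio only, since its miR-34a reading lay within background. The bound on its decrease, at least 1.12-fold, is inside the spread between probe sets. Among all 12774 expressed genes 0.548% were at least 2-fold lower and 0.595% at least 2-fold higher, and at 1.5-fold the shares were 3.01% and 3.28%. The median over the 9 members was -0.47, where the median over all expressed genes is 0 by construction and their quartiles were -0.17 and 0.17. The members were taken up with earlier results of these arrays known, so these counts describe them and are not evidence that Notch genes as a class stand apart.

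**Figure D1:**
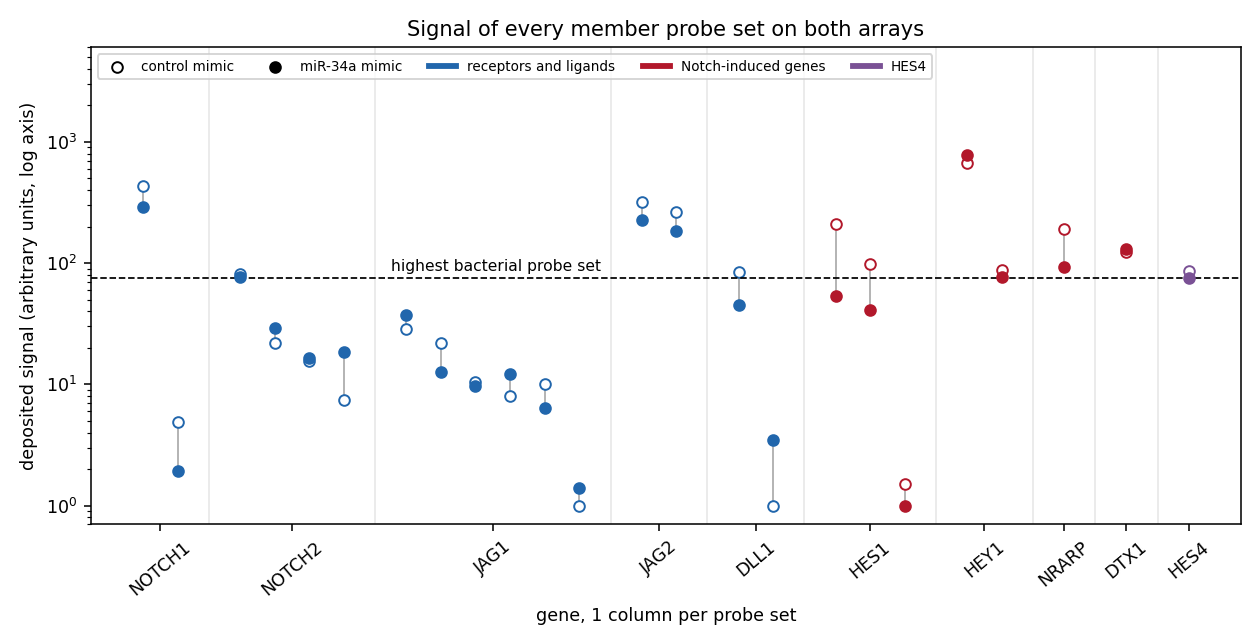
Deposited signal (arbitrary units, log axis) of all 24 member probe sets, 1 column each, with open circles for the control mimic and filled circles for the miR-34a mimic; the dashed line is the highest bacterial probe set, 75.4. HES1, NRARP, NOTCH1 and JAG2 have probe sets above the line on the control array that are lower with miR-34a, HEY1 and DTX1 have their brightest slightly higher, and all JAG1 probe sets lie under the line on both arrays.

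Of the 24 probe sets, 12 passed the filter, and these were the 12 above background on at least the control array. NOTCH1, NOTCH2, JAG2, HEY1, NRARP and DTX1 were above background on both arrays, and DLL1, HES1 and HES4 on the control array only. JAG1 was within background throughout. By the sign of the ratio alone, 10 of the 12 probe sets that passed were lower and 2 higher. HES1 and JAG2 each gave 2 of the lower ones, and the lower NOTCH2, HES4 and HEY1 ratios were inside the spread between probe sets. Among all expressed genes 50% were lower, by construction. Of the 12 probe sets that did not pass, 5 were lower and 7 higher. The last group lies where the signal cannot be told from that of bacterial probe sets, and no direction is read from it.

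Of the receptors, NOTCH1 was lower and NOTCH2 was near its control level. NOTCH1, the receptor most often altered in T cell leukemia, went from 434.5 on the control array to 292.4 with miR-34a on probe set 218902_at, a log2 ratio of -0.56. This is 1.49-fold lower in signal, and 3.45% of expressed genes had a lower ratio. Its other probe set, 223508_at, read 4.88 and 1.94, so NOTCH1 rests on a single probe set. NOTCH2, a receptor with the same domain plan, read 81.4 and 76.8 on 202443_x_at, just above background, with a ratio of -0.080 that is smaller than the spread between probe sets. Its other 3 probe sets read between 7.37 and 28.9 on either array and gave ratios from 0.030 to 0.57. A further probe set, 227067_x_at, is annotated to NOTCH2 together with 4 NOTCH2NL genes, which are human-specific partial copies of NOTCH2. It read 206.9 and 201.9, with a ratio of -0.041. Probe set 214722_at, annotated to NOTCH2NLA alone, read 944.9 and 903.7, with a ratio of -0.072. Such near-identical copies can share signal, so the part of NOTCH2 itself in the _x_at readings is uncertain. None of these brighter NOTCH2 or NOTCH2NL readings differed between the arrays by more than the spread between probe sets.

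Among the ligands, JAG2 was lower, the decrease of DLL1 was only bounded, and JAG1 could not be measured. JAG2, a Jagged ligand, went from 316.0 to 225.9 on 32137_at and from 261.2 to 183.1 on 209784_s_at. Both probe sets thus showed 1.40-fold and 1.43-fold lower signals, with ratios of -0.47 and -0.49 and an SD of 0.015 between them. Of the expressed genes, 5.49% had a lower ratio than JAG2. DLL1, a Delta-like ligand, went from 84.1 to 44.9 on 227938_s_at, a ratio of -0.74. The miR-34a signal was within background, so the decrease is only bounded, at least 1.12-fold, and this bound is inside the spread between probe sets. The other DLL1 probe set, 224215_s_at, read 1 and 3.48. JAG1, the other Jagged ligand, had 6 probe sets, and the highest signal of any of them was 37.1. Their ratios ran from -0.42 to 0.24, with 3 lower and 3 higher. JAG1 is a reported miR-34a target, and a change in it was not measurable in K562 on these arrays.

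**Figure D2:**
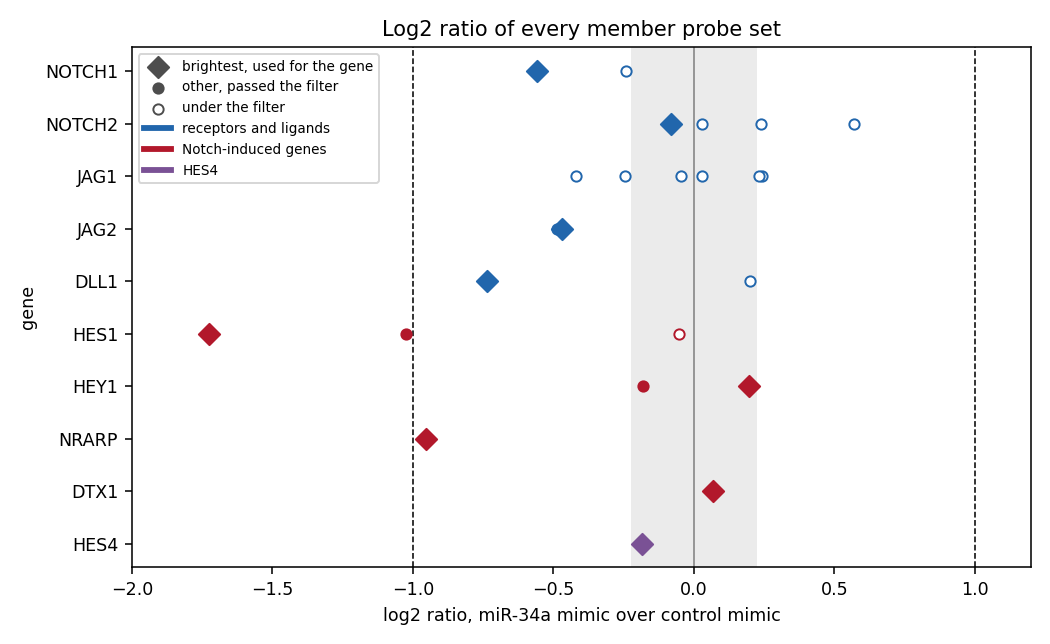
Log2 ratio of miR-34a over control mimic for every member probe set. Diamonds mark the brightest expressed probe set of a gene, filled circles other expressed probe sets and open circles those under the filter. The grey band is the spread between probe sets, 0.22, to either side of 0, and the dashed lines mark 2-fold. Both expressed HES1 probe sets lie left of the lower 2-fold line, the JAG2 pair coincides near -0.48, and the HEY1 pair lies on either side of 0.

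Of the Notch-induced genes, HES1 and NRARP were lower, and HEY1 and DTX1 had ratios inside the spread between probe sets. HES1, a bHLH repressor and the best-known direct Notch target, went from 211.3 to 53.9 on 203395_s_at and from 98.6 to 41.3 on 203394_s_at. Its signals were 3.92-fold and 2.39-fold lower, and the ratios were -1.72 and -1.02, an SD of 0.50 between probe sets that agree in direction and differ in size. Since both miR-34a readings were within background, the decreases are bounded, at least 2.80-fold and at least 1.31-fold. The remaining probe set, 203393_at, read 1.51 and 1. No rank among the expressed genes is given for HES1, because its level with miR-34a was not measured above background.

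NRARP, a small ankyrin-repeat protein that is induced by Notch and dampens it, went from 190.8 to 92.0 on its only probe set, 226499_at. This is 2.07-fold lower in signal, both readings were above background, and the ratio of -0.95 falls just short of 2-fold on the scale with the pseudocount. NRARP had the 90th lowest ratio of the expressed genes, and 0.389% of the 2055 probe sets of similar level (1 of 20 bands of mean level) were lower. It has no second probe set to check it against.

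HEY1 and DTX1 gave small ratios. HEY1, a bHLH repressor related to HES1, read 669.3 and 773.3 on 44783_s_at and 88.2 and 76.7 on 218839_at. The ratios of 0.20 and -0.18 have opposite signs and are each within the spread between probe sets, so no direction is read for HEY1. DTX1, a ubiquitin ligase that binds the Notch intracellular domain, read 122.5 and 130.0 on 227336_at, with a ratio of 0.067. HES4 read 86.5 and 74.8 on 227347_x_at, with a ratio of -0.19 and a miR-34a signal just within background. That ratio, too, is inside the spread between probe sets. The control signal of HES4 was only 1.15-fold the background maximum, also inside that spread, so no decrease is read for HES4 and no rank is given.

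**Figure D3:**
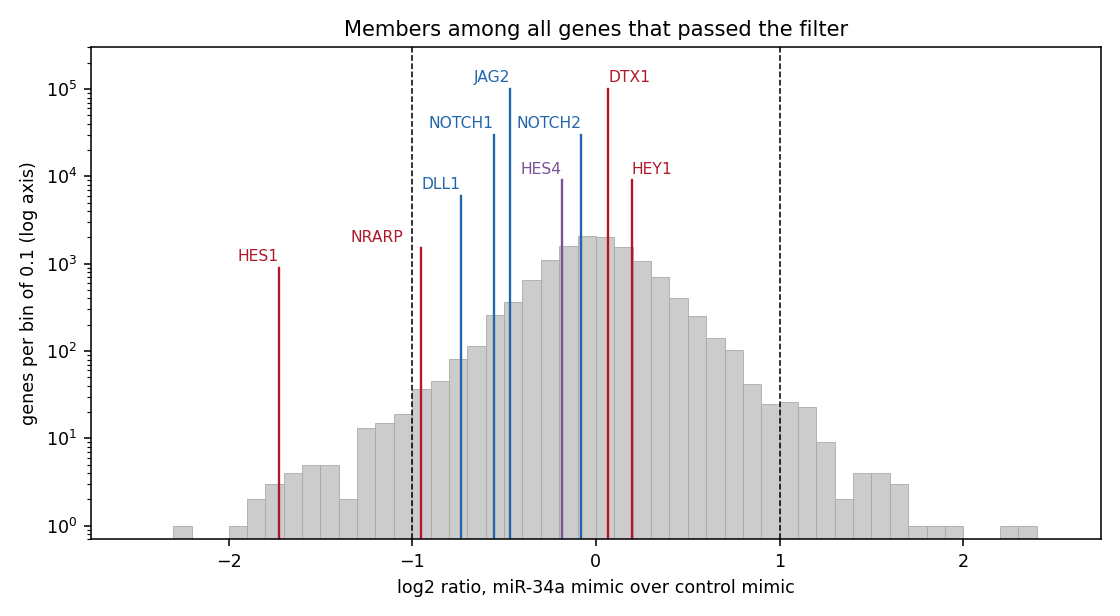
Number of expressed genes per 0.1 of log2 ratio (grey bars, log axis), with a vertical line at the ratio of each of the 9 members that passed the filter; line heights only separate the labels, and dashed lines mark 2-fold. HES1 stands in the lower tail, at a ratio that rests like that of DLL1 on a miR-34a reading within background, NRARP at the edge of 2-fold, DLL1, NOTCH1 and JAG2 between -0.74 and -0.47, and HES4, NOTCH2, DTX1 and HEY1 in the body of the distribution.

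The receptors and ligands were set beside the Notch-induced genes by their ratios, with no test. The 4 measured receptors and ligands ran from -0.74 for DLL1, whose decrease is only bounded, to -0.080 for NOTCH2, which is inside the spread between probe sets, with a median of -0.51. The 4 Notch-induced genes ran from -1.72 for HES1, also bounded, to 0.20 for HEY1, for which no direction is read, with a median of -0.44. The medians differed by 0.069, and with 4 genes in each class this value does not show that the classes are alike. The median of the Notch-induced genes falls in the gap between NRARP and DTX1, where no gene lies, and it was 0.21 when the filter was raised to the 75th percentile, which left HEY1 alone in the class, and -0.17 without probe sets of the _s_at, _x_at and _a_at classes, which dropped HES1. Under the same changes the receptors and ligands stood at -0.50 and -0.51, with NOTCH1 and JAG2 as their only members.

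HES1 and HES4 carry the letters of the RBPJ site close to their starts, and they are printed since HES1 had the lowest ratio of all members and HES4 one within the spread between probe sets. Of the 10 members 7 had a promoter window that was used, and the 250 bases before the annotated start were searched on both strands for GTGGGAA and for its core TGGGAA, which lies inside it. The sequences are from RefSeq (GRCh38.p14), 5′ to 3′ on the gene's strand and ending at the base before the start, with these letters in capitals. HES1 is on the plus strand at chr3:194135898-194136147, and HES4 on the minus strand at chr1:1000098-1000347.
HES1: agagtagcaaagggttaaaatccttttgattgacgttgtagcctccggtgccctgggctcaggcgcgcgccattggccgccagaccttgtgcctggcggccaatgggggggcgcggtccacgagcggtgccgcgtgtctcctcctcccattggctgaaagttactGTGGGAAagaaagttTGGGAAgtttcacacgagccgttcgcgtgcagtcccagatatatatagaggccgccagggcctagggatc
HES4: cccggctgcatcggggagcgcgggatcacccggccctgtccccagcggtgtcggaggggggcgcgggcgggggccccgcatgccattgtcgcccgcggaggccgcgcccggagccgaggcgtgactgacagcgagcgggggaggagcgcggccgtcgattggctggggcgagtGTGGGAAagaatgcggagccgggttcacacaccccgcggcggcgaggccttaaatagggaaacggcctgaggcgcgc
In HES1, GTGGGAA stood at positions -85 to -79 from the start and a second TGGGAA at -70 to -65. In HES4, GTGGGAA stood at -77 to -71 and there was no second core. The longest run that both windows share was the 12 bases TGTGGGAAAGAA. The windows of NRARP, NOTCH1, NOTCH2, JAG1 and JAG2 held neither form, which says only that these letters are not in those 250 bases. Of 35116 promoter windows of the same length 5.43% held GTGGGAA and 20.8% TGGGAA. The N box that HES proteins bind, CACNAG, occurred 3 times in the HES1 window, with 1 on the minus strand, and not in the other 6, against 32.0% of all windows with at least 1. These matches are descriptions of sequence and show no binding in K562.

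The rest of the pathway showed little net shift. A list of 58 further genes was ordered by role. Of these 46 were expressed, 7 were under the filter and 5 were not analysed here. Among the 46, by the sign of the ratio alone and with genes within background counted, 25 were lower and 21 higher, and the median was -0.020. With a filter on mean signal above 75.4, 23 of 39 were lower. Of the 46, 0 were at least 2-fold lower and 1, or 2.17%, was at least 2-fold higher. The shares of all expressed genes were 0.548% and 0.595%. The gene past 2-fold was KAT2B, and FURIN fell just short of 2-fold lower. At 1.5-fold FURIN and APH1A were lower and DLK1 and KAT2B higher. These are 2 genes in each direction, 4.35% of the list, beside the 3.01% and 3.28% of all expressed genes.

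Of the other receptors, NOTCH4 read 65.5 and 71.1, both within background with a ratio of 0.088, and both NOTCH3 probe sets were under the filter. Of the other ligands, DLK1, a non-canonical ligand made by immature cells, went from 2199 to 3360 on 209560_s_at, with a ratio of 0.60. Its second probe set was under the filter. DLL3 went from 101.8 to 78.3, a ratio of -0.33, while its second expressed probe set gave 0.0040, and DLL4 read at most 2.73. In the HES and HEY family, HES6 went from 411.6 to 305.8, with a ratio of -0.42 on 1 probe set, HES7 had 0.16, and HEYL had 0.11 within background. HES2, HES5 and HEY2 were under the filter, with highest signals of 41.2, 21.0 and 12.1. The measured HES and HEY genes besides HES1, members included, thus had gene values between -0.42 and 0.20.

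Genes for the cutting of the receptor ran from -0.98 to 0.57. FURIN, the convertase that makes the first cut of the receptor during its maturation, went from 400.9 to 197.5, a ratio of -0.98 on 1 probe set. Its signal was 2.03-fold lower, and the ratio falls just short of 2-fold on the scale with the pseudocount. APH1A, a gamma-secretase subunit, went from 162.2 to 93.0, a ratio of -0.72. Of the other measured gamma-secretase subunits, PSENEN and NCSTN had 0.57 and 0.28, APH1B had -0.39 within background, and PSEN2 had -0.030, inside the spread between probe sets. By the sign of the ratio alone, 4 of 8 measured genes for proteases and their subunits were lower and 4 higher. Among glycosyltransferases, RFNG, a Fringe enzyme of the kind that sets the ligand preference of the receptor, had -0.26. POFUT1 and POGLUT1, which add O-linked fucose and glucose to the receptor, had -0.23 and -0.067. MFNG, another Fringe, had 0.54, with a control reading of 60.2 that was within background, and its second probe set gave -0.31.

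Among 9 nuclear activators, KAT2B was at least 2-fold higher and the others ran from -0.35 to 0.15. RBPJ, the DNA-binding partner of all Notch receptors, had 0.15 and 0.14 on its expressed probe sets, from a control signal of 621.3. The coactivators MAML1 and MAML2 had -0.35 and -0.26. KAT2B, the acetyltransferase PCAF, went from 125.6 to 283.1, a ratio of 1.08 on its single probe set. Among corepressors TLE3 had -0.53, and its 4 probe sets ran from -0.53 to -0.015, the last inside the spread between probe sets. HDAC1, from 1970 to 1417, had -0.48. TLE4 and CTBP2 were the highest there, at 0.33 and 0.29. By the sign of the ratio alone, 6 of 11 measured genes for turnover and endocytosis were lower and 5 higher. DTX2 at -0.13 and FBXW7 at -0.12 were lowest, both inside the spread between probe sets, and DTX3 at 0.43 and NEURL1 at 0.23 highest. The other expressed probe sets of FBXW7 gave 0.26 and 0.29, and that of DTX3 gave -0.011. DTX2 was within background on both arrays and DTX3 on the control array.

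**Figure D4:**
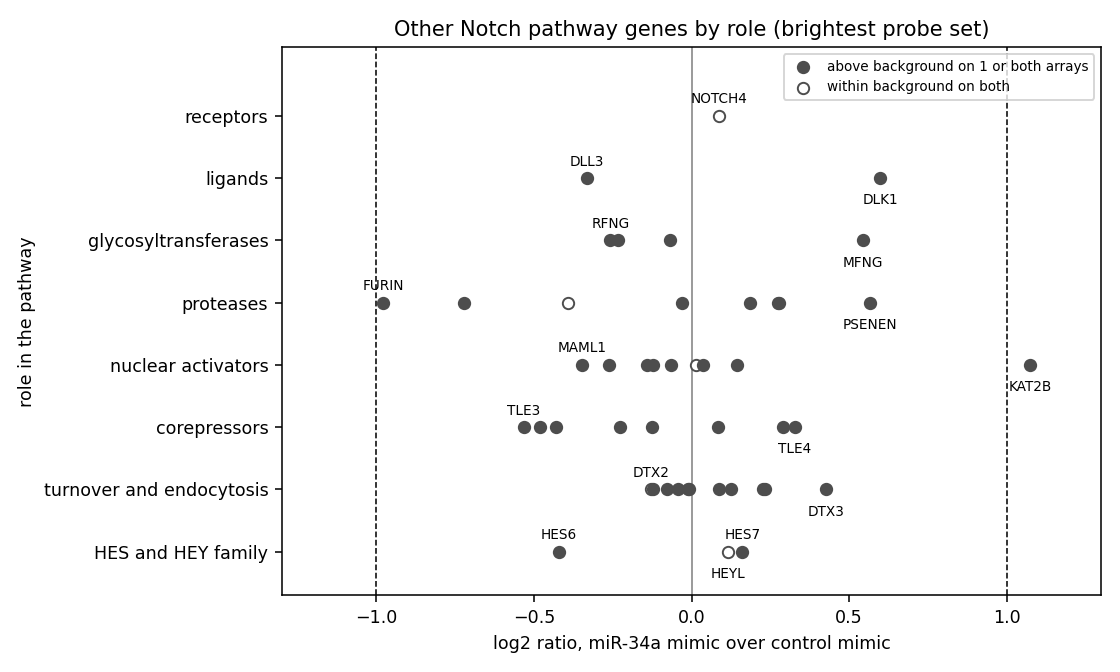
Log2 ratio of miR-34a over control mimic for the 46 expressed genes of the wider pathway list, by role; open circles are genes within background on both arrays, dashed lines mark 2-fold, and the lowest and highest gene of each role are named (all where a role has fewer than 4). FURIN at -0.98 and KAT2B at 1.08 are the extremes.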

How the data were processed

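The authors deposited 1 table of linear probe set intensity values for both arrays, with a floor of 1. Biotinylated cRNA was made by Affymetrix's method from Trizol RNA, per the labels' protocols. The software behind their background correction and scaling was not given in the sources used here. No detection calls were used. Genes were named from the platform's annotation, using the 41091 probe sets with 1 symbol. The pseudocount of 14.9 is the 25th percentile of all values. Dim probe sets carry the largest error, and the pseudocount draws their ratios toward 0. The members, the class split and the gene lists were chosen with earlier results of these data known. Named genes were all members, every further receptor, ligand, HES and HEY gene, and the 2 lowest and 2 highest of each other role. With 1 array per group no test was possible, so genes were counted at 2-fold and 1.5-fold. Alternatives changed pseudocount, filter, centring, normalization and probe set choice. The calculation was tested on simulated data. Promoter sequences of HEY1, DLL1 and DTX1 were not used here. Python 3.11.15, NumPy 2.4.6, pandas 2.3.3, statsmodels 0.14.6 and matplotlib 3.10.9 were used.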

Additional observations from a re-analysis of the deposited data

How the results depend on the processing

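Of 191 values recomputed under the alternatives, 173 stayed within the spread between probe sets of a gene (0.22, log2) or, for counts, within 1.5 times. NOTCH1 ranged from -0.57 to -0.50 and JAG2 from -0.49 to -0.40 over 11 alternatives, and HES1 from -1.91 to -1.26 over the 9 that kept it. DLL1 ranged from -0.86 to -0.47 over the 8 that kept it, the last with the pseudocount multiplied by 4. NRARP ranged from -1.03 to -0.73 over the 10 that kept it, with -0.73 under that same pseudocount. The number of members at least 2-fold lower was 1, and it was 2 with the pseudocount divided by 4, where NRARP passed at -1.03, and 3 at a threshold of 1.5-fold. It was 0 when the filter was raised to the 75th percentile and 0 without the _s_at, _x_at and _a_at classes, since each leaves out both HES1 probe sets. Under these last 2 settings the median of the Notch-induced genes was 0.21 and -0.17, and its difference from the receptors and ligands 0.71 and 0.33, over 3 and 5 genes. HEY1 was -0.17 without those classes. JAG1 gained a value, 0.24, only when the filter was lowered to the 25th percentile or removed. The receptor and ligand median ranged from -0.53 to -0.43, and that of the wider list from -0.061 to -0.0079. In the wider list 1 gene was at least 2-fold lower with the pseudocount divided by 4. With the pseudocount multiplied by 4, 0 genes of that list were at least 2-fold higher, and 2 were with no filter. A filter on mean signal above 75.4 was added after the data were seen. The number of arrays limits the precision. Signals within 75.4 limit DLL1 and HES1 to bounds, and no decrease is read for HES4. No paired analysis was possible because each group has 1 array.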
